A study of Homo sapiens with 4 samples.

Results

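The genes described here are 54 genes of the NRF2 pathway and of the glutathione and thioredoxin systems, which control the redox state of the cell. They were taken by symbol from a fixed list, and all 54 were found, by Entrez ID, among the 39259 genes of the deposited table. They fall into 13 groups by role: NRF2 and its regulators, quinone and heme enzymes, ferritin, glutathione synthesis, glutathione peroxidases, glutathione transferases, the thioredoxin system, peroxiredoxins, glutaredoxins, superoxide dismutases with catalase, ABCC efflux transporters, NADPH enzymes and aldo-keto reductases. RNA was sequenced from MDA-MB-231, an established human line of triple-negative breast cancer, in 4 libraries. Wild-type cells (WT) gave 2 libraries, and the other 2 carry the label of an mdig knockout (KO); mdig, also named MINA53, is encoded by RIOX2. All cells were grown untreated in the same medium with serum. The labels give neither the way the knockout was made nor the number of clones, and they do not state that the replicates of a group were separate cultures, so each p-value measures the spread between these libraries alone.

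NRF2, encoded by NFE2L2, is a transcription factor that is held in check by KEAP1, an adaptor that presents it to a ubiquitin ligase for destruction. When oxidants or electrophiles modify KEAP1, NRF2 accumulates, pairs with a small MAF protein and binds the antioxidant response element, a short DNA motif that the repressor BACH1 can also occupy. Its known targets make and recycle glutathione, reduce thioredoxin, supply NADPH, detoxify quinones, store iron and pump conjugates out of the cell.

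Values are FPKM, fragments scaled to 1 kilobase of gene length and 1000000 fragments assigned to genes, so levels of different genes can be set side by side. Wherever 4 values of a gene are given, they are those of WT replicates 1 and 2 and then of KO replicates 1 and 2. Changes are differences of log2(FPKM + 1), libraries labelled KO minus WT, with the standard error (SE) and the adjusted p of limma. A gene is said to have risen or fallen where its adjusted p was under 0.05 over the 11716 genes tested, those whose mean reached 1 FPKM. The assigned fragments numbered 22503981 in WT replicate 2 and 45173267 to 52163811 in the other 3 libraries. RIOX2 measured 8.60, 8.24, 9.23 and 9.82 FPKM. Its RNA was thus not lower in the libraries labelled KO (change 0.16, adjusted p = 0.0546; 0.0131 to 0.359 over the alternatives), and an edit that spares the RNA level would not show in this table, so the labels remain unchecked. Markers of the line were present, from 47.2 FPKM for EGFR in WT replicate 2 to 2394 FPKM for VIM in the same library. ESR1 and PGR, whose absence defines the subtype together with that of HER2, had at most 1 fragment in any library. Of the other 4 markers listed as low in this line, GATA3 measured 3.49 to 4.23 FPKM and fell, EPCAM measured 1.87 to 2.65 FPKM and rose, CDH1 had 39, 14, 142 and 159 fragments and FOXA1 had 20, 8, 0 and 2. Of 14 markers of leukocytes, endothelium and fibroblasts, CD3E, COL3A1 and DCN were among those with at most 1 fragment per library, and the highest was COL1A1 at 1.86 to 3.01 FPKM. Their sums differed with the label: 1.51 and 1.63 against 1.04 and 0.756 FPKM for 5 leukocyte genes, 1.16 and 1.23 against 1.57 and 1.54 FPKM for 4 endothelial genes, and 1.87 and 2.13 against 3.02 and 2.72 FPKM for 5 fibroblast genes. Of the 5 leukocyte genes, the highest had a mean of 0.965 FPKM over the 4 libraries, and 2 had at most 1 fragment per library. The endothelial sum was mostly PECAM1 (0.970 to 1.37 FPKM) and the fibroblast sum nearly all COL1A1. CDH5, VWF and PDGFRA had a lower mean with the KO label. Their part in the results was not tested, and in bulk RNA fewer cells of a type and less RNA per cell cannot be told apart.

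To show what the regulatory DNA of such genes looks like, the stretch from 150 to 51 bases before the start site is printed for 4 members that differed in their change: NQO1 and TXNRD1, which rose, GSTP1, which fell, and ME1, which did neither. The sequences are from RefSeq on GRCh38.p14 and read 5′ to 3′ on the strand of the gene. Capitals mark matches to TGACNNNGC, the core of the antioxidant response element, searched on both strands.
NQO1, minus strand, chr16:69726611-69726710: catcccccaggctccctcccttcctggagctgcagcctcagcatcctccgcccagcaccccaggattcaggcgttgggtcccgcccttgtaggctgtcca
TXNRD1, plus strand, chr12:104215629-104215728: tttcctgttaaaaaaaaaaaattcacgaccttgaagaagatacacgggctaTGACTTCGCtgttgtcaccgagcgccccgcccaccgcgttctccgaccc
GSTP1, plus strand, chr11:67583662-67583761: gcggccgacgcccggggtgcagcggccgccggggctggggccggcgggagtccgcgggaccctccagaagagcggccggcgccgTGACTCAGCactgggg
ME1, minus strand, chr6:83431102-83431201: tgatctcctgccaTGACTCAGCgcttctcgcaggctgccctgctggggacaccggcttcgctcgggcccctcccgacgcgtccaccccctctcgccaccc
GSTP1 and ME1 carry the same 9 letters, TGACTCAGC, which begin 66 and 137 bases before their start sites. The match in the printed stretch of TXNRD1, TGACTTCGC, begins 99 bases before the first of its 2 start sites in the table. Outside the printed stretches, TXNRD1 had further matches at −8 from that start site and −102 from the second. ME1 had another at 11 from its start site. RefSeq windows, each from 250 bases before to 50 bases after a start site, were found for 41 of the 54 members. The motif was present in a window of 10 of these 41 members (24.4%), against 16.1% of all 27305 genes in the table. It was found in 3 of 7 members that rose (TXNRD1, PGD and MGST1), in 6 of 16 that fell (GSTP1, GSTO1, GCLM, KEAP1, MAFF and ABCC4) in 1 of 15 that passed neither way (ME1) and in 0 of 3 that were not tested. A match is a run of letters and not a shown binding site, and response elements farther away lie outside these windows.

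Of the 54 members, 50 reached a mean of 1 FPKM and were tested. In the libraries labelled KO 12 rose and 20 fell, which is 64.0% of the 50, beside 49.9% of all tested genes (21.6% rose and 28.4% fell). The difference between these shares was not tested. With median-of-ratios scaling 13 members rose and 15 fell, and over the whole table more genes rose than fell (2920 and 2710, against 2527 and 3323 in the test used here). Their median change was −0.06 and that of all tested genes −0.04. The values of the WT libraries and the libraries labelled KO did not overlap for any of the 32 called members, nor for 8 of the 18 members that did not pass; over all tested genes 77.5% did not overlap. Most changes were small: 6 of the 50 tested members (12.0%) reached 0.5 on the log2 scale, namely ABCC3, NQO1, AKR1C3, OSGIN1, GSTP1 and MAFF, beside 11.0% of all tested genes. The counts depended on the libraries kept, with 7 higher and 15 lower without KO replicate 1, 6 and 13 without KO replicate 2, 10 and 21 without WT replicate 1 and 13 and 20 without WT replicate 2. Of the 32 calls 16, 6 higher and 10 lower, were kept in every alternative in which the gene was tested.

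**Figure D1:**
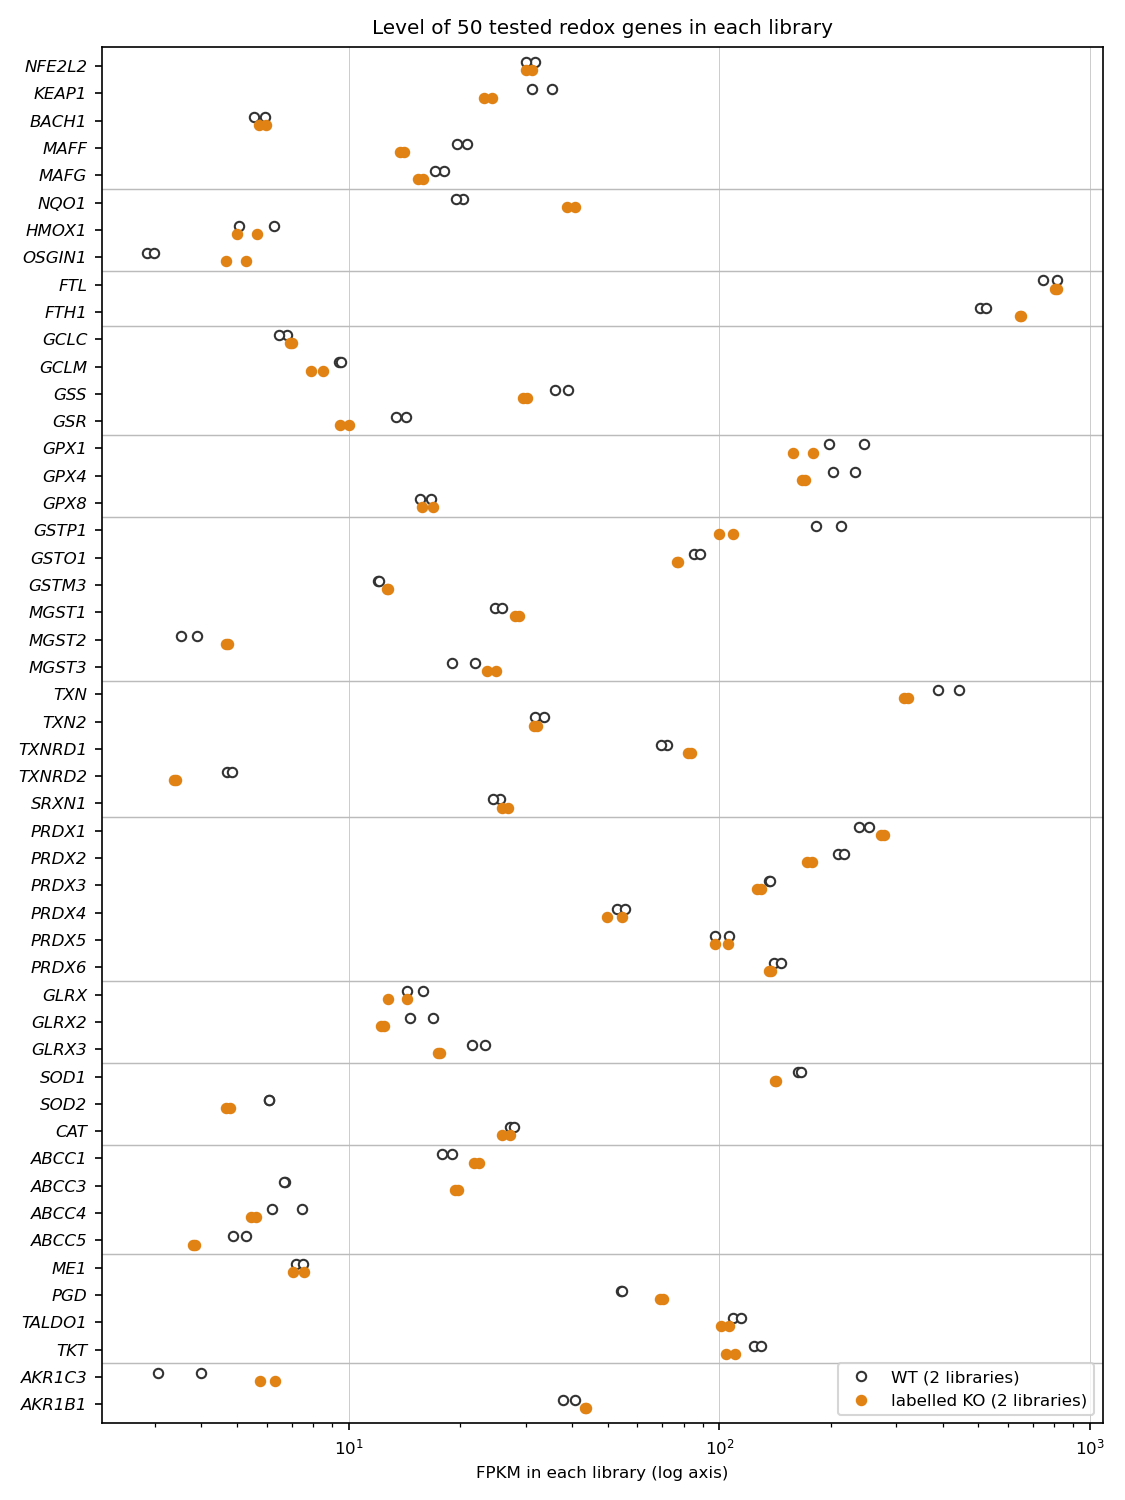
Level of the 50 tested members in each library, in FPKM on a log axis, grouped by role with lines between groups; open points are the 2 WT libraries and filled points the 2 libraries labelled KO. The points of NQO1, ABCC3 and GSTP1 stand well apart between groups (19.4 to 20.4 against 38.8 to 40.8 FPKM for NQO1), whereas those of NFE2L2 and BACH1 overlap.

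Among the regulators, NFE2L2 itself did not pass while 3 of the other 4 fell, beside 28.4% of all tested genes. NFE2L2 (Entrez ID 4780, on chromosome 2 from 177230303 to 177264727 in the deposited gene models, whose positions are those of GRCh38) measured 31.9, 30.1, 30.1 and 31.2 FPKM. The groups overlapped, and the change was −0.01 (SE 0.056, adjusted p = 0.842), with a sign that depended on the alternative. KEAP1 (chromosome 19, 10486125 to 10503356) measured 31.2, 35.4, 24.4 and 23.2 FPKM. Both WT libraries lay above both libraries labelled KO, a 1.40-fold lower level (change −0.47, SE 0.070, adjusted p = 0.00109). The ratio of NFE2L2 to KEAP1 in FPKM was 1.02 and 0.850 in WT against 1.24 and 1.35 with the KO label, both above either WT value. The other tested genes within the same 20 Mb of chromosome 19 had a median change of −0.17, and KEAP1 still fell with such bin medians subtracted (−0.30, adjusted p = 0.0117).

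BACH1, the repressor, measured 5.95, 5.54, 5.73 and 5.97 FPKM, with overlapping groups (change 0.02, adjusted p = 0.776). MAFF, a small MAF partner that has no activation domain of its own, measured 19.5, 20.8, 13.8 and 14.1 FPKM. It was 1.45-fold lower in the libraries labelled KO, the largest fall among the regulators (−0.51, SE 0.057, adjusted p = 0.000290). Its relative MAFG measured 18.1, 17.1, 15.3 and 15.9 FPKM and fell by 0.16 on the log2 scale, just past the threshold (adjusted p = 0.0466). That call was lost without WT replicate 1 (−0.12, adjusted p = 0.113), KO replicate 1 (−0.14, adjusted p = 0.281) or else KO replicate 2 (−0.18, adjusted p = 0.149). Subtracting bin medians left −0.01 (adjusted p = 0.859).

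NQO1 and OSGIN1 rose, and HMOX1 did not pass. NQO1, which reduces quinones by a 2-electron step and is widely used as a readout of NRF2, measured 20.4, 19.4, 38.8 and 40.8 FPKM. Its level was 2.0-fold higher in the libraries labelled KO (change 0.97, SE 0.057, adjusted p = 1.37e-05), from 1102 to 5368 fragments per library. The gene lies on chromosome 16 (69709401 to 69726560), where the bin median was −0.05, and its change stayed between 0.93 and 1.02 over all alternatives. OSGIN1, a stress-induced growth inhibitor, measured 2.86, 2.98, 5.28 and 4.66 FPKM and was 1.70-fold higher (0.61, SE 0.070, adjusted p = 0.000314). HMOX1, which breaks down heme, stayed low at 5.06, 6.29, 5.66 and 5.00 FPKM. Its groups overlapped (−0.07, adjusted p = 0.572), but without WT replicate 1 it passed as a fall (−0.21, adjusted p = 0.00634).

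Ferritin, the shell that stores iron, was the most abundant product of the list. FTL, the light chain, measured 748, 814, 815 and 803 FPKM, with overlapping groups (change 0.05, adjusted p = 0.495). It passed as a rise once trends with length and GC content were taken out (0.17, adjusted p = 0.0395). FTH1, the heavy chain with the ferroxidase site, measured 504, 524, 650.2 and 649 FPKM and was 1.26-fold higher in both libraries labelled KO (0.34, SE 0.053, adjusted p = 0.00134). The heavy chain thus made up 40.2% and 39.2% of the summed ferritin FPKM in WT against 44.4% and 44.7% with the KO label. In the deposited gene models, 73.2% of the exonic length of FTH1 overlaps BEST1 on the other strand. BEST1 stood at 0.0264 to 0.0406 FPKM, and the strand setting of the counting is not given in the sources used here.

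Genes of glutathione synthesis and recycling were lower for 3 of 4, beside 28.4% of all tested genes. Glutathione is built by glutamate-cysteine ligase, whose catalytic chain is GCLC and whose modifier chain is GCLM, and then by GSS; GSR reduces the oxidized form with NADPH. GSR (Entrez ID 2936) measured 14.2, 13.4, 9.49 and 10.0 FPKM and was 1.42-fold lower in the libraries labelled KO (change −0.46, SE 0.060, adjusted p = 0.000560). GSS measured 36.0, 38.9, 30.2 and 29.5 FPKM and fell by 0.32 on the log2 scale (SE 0.058, adjusted p = 0.00283). Both groups were clear of each other for GSR and GSS, and both calls were kept in every alternative. GCLM, a known NRF2 target like NQO1, moved the other way from NQO1: it measured 9.42, 9.50, 7.92 and 8.52 FPKM (−0.18, SE 0.059, adjusted p = 0.0329). Its call was lost without KO replicate 1 (−0.14) or else KO replicate 2 (−0.23). GCLM also did not pass with bin medians subtracted (−0.13, adjusted p = 0.122) or with median-of-ratios scaling (−0.14, adjusted p = 0.0693). The same held with no filter (adjusted p = 0.0883) and with a replicate block (adjusted p = 0.0678). GCLC measured 6.80, 6.47, 7.04 and 6.92 FPKM and did not pass (0.06, adjusted p = 0.381). The ratio of GCLC to GCLM was 0.721 and 0.681 in WT against 0.888 and 0.813 with the KO label.

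Both abundant glutathione peroxidases of the list, GPX1 and GPX4, which are selenoproteins, fell. GPX4, which reduces lipid peroxides in membranes, measured 203, 232, 170.5 and 167 FPKM (change −0.36, SE 0.069, adjusted p = 0.00366). Every WT value lay above those of the libraries labelled KO. GPX1, the cytosolic enzyme, measured 198, 245, 179 and 158 FPKM and was the least even of these genes within groups (−0.39, SE 0.12, adjusted p = 0.0488). The call on GPX1 was lost without KO replicate 2 (−0.30, adjusted p = 0.139) and with a pseudocount of 0.1 (adjusted p = 0.0508). With bin medians subtracted neither passed: GPX4 changed by −0.19 (adjusted p = 0.0607) and GPX1 by −0.18 (adjusted p = 0.302). GPX8, an enzyme of the endoplasmic reticulum that lacks selenocysteine, measured 16.6, 15.6, 15.8 and 16.9 FPKM, with overlapping groups. GPX3, from the list of further glutathione enzymes, measured 61.5, 68.0, 69.0 and 66.2 FPKM. Its groups overlapped and it did not pass with all libraries (0.06, adjusted p = 0.422).

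The glutathione transferases split into a large fall of GSTP1 and small rises of membrane enzymes. GSTP1 (chromosome 11, 67583812 to 67586653), the main cytosolic transferase of many tumors, measured 182, 213, 109 and 99.6 FPKM. It was 1.90-fold lower in the libraries labelled KO, the largest fall of the 50 tested members (change −0.91, SE 0.085, adjusted p = 0.000235), and its change lay between −1.03 and −0.75 over all alternatives. Of the microsomal transferases, MGST2 measured 3.52, 3.89, 4.66 and 4.72 FPKM (0.27, adjusted p = 0.00838) and MGST3 measured 19.0, 21.8, 23.6 and 24.9 FPKM (0.24, adjusted p = 0.0256). MGST1 rose by 0.16 (adjusted p = 0.0391) and the omega-class GSTO1 fell by 0.17 on the log2 scale (adjusted p = 0.0236), while GSTM3 at 12.0 to 12.7 FPKM did not pass.

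These small changes did not pass with a KO replicate left out. Without KO replicate 1 the adjusted p was 0.0570 for MGST2, 0.0608 for MGST3, 0.252 for MGST1 and 0.153 for GSTO1, and without KO replicate 2 it was 0.0727, 0.154, 0.161 and 0.171. MGST1 also did not pass without WT replicate 1 (0.13, adjusted p = 0.0756), and GSTO1 neither with bin medians subtracted (−0.10, adjusted p = 0.154) nor with length and GC trends removed (−0.10, adjusted p = 0.147). MGST2 lies on chromosome 4 in a region whose other genes had a median change of 0.49, and with bin medians subtracted it was lower (−0.22, adjusted p = 0.0293). GSTP1 took 55.8% and 58.3% of the summed FPKM of the 6 transferases in WT against 42.5% and 40.3% with the KO label, and the sum went from 327 and 366 to 256 and 247 FPKM.

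**Figure D2:**
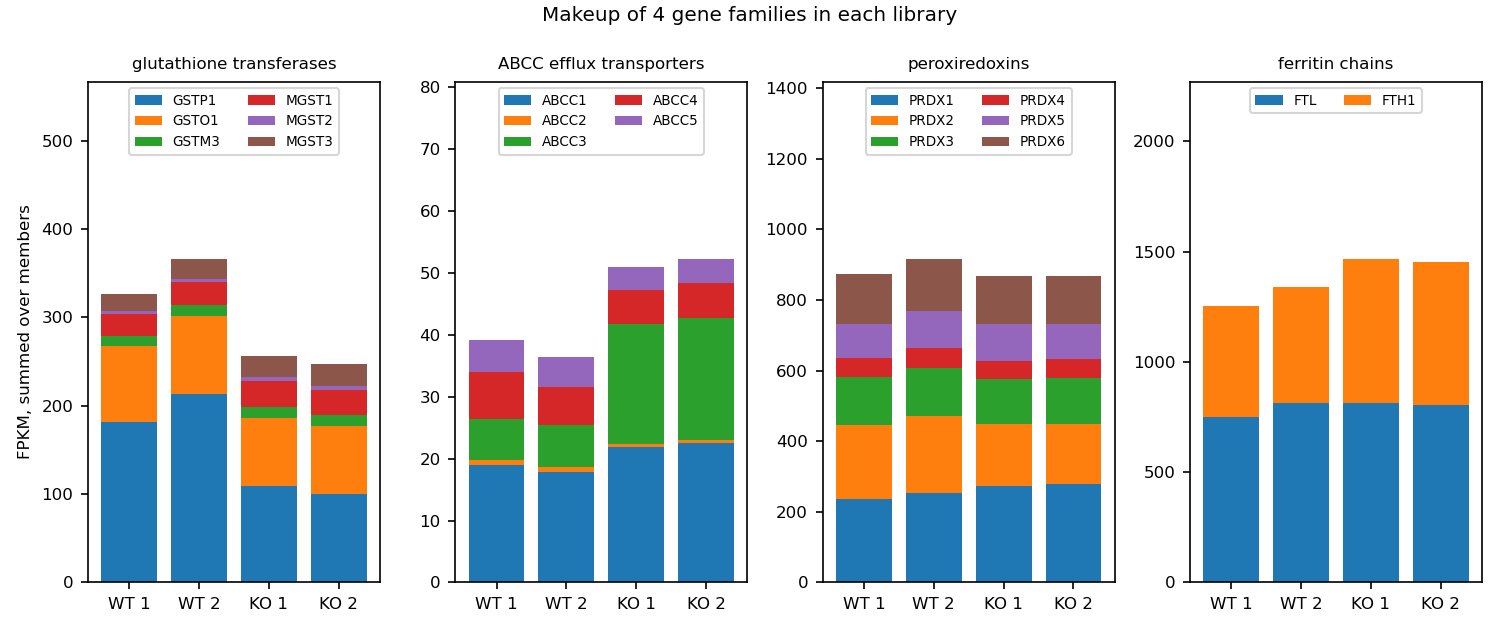
Summed FPKM of 4 gene families in each of the 4 libraries, as stacked bars from 0 with 1 color per gene and a separate axis for each family. GSTP1 shrinks from 55.8% and 58.3% to 42.5% and 40.3% of the transferases, ABCC3 grows from 17.2% and 18.3% to 38.0% and 37.7% of the transporters, and the sum of the peroxiredoxins stays between 868 and 916 FPKM.

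In the thioredoxin system the cytosolic reductase rose while its substrate and the mitochondrial reductase fell. TXN, the small protein that reduces disulfides in the cytosol, measured 389, 444, 315 and 323 FPKM (change −0.38, SE 0.069, adjusted p = 0.00292). TXNRD1, the selenoenzyme that recharges it with NADPH, measured 72.1, 69.6, 82.4 and 83.9 FPKM and was 1.17-fold higher in the libraries labelled KO (0.23, SE 0.051, adjusted p = 0.00702). The ratio of TXNRD1 to TXN was 0.185 and 0.157 in WT against 0.261 and 0.260 with the KO label. The rise of TXNRD1 did not pass without KO replicate 1 (0.24, adjusted p = 0.0554) or else KO replicate 2 (0.22, adjusted p = 0.0870). It went against its region on chromosome 12, which had a median of −0.22.

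TXNRD2, the mitochondrial reductase, measured 4.70, 4.83, 3.42 and 3.37 FPKM and was 1.40-fold lower (change −0.39, SE 0.058, adjusted p = 0.0010). Its partner TXN2 stayed at 31.5 to 33.6 FPKM with overlapping groups (adjusted p = 0.623). SRXN1, the sulfiredoxin that repairs overoxidized peroxiredoxins and a known NRF2 target, measured 25.6, 24.6, 25.9 and 26.8 FPKM and did not pass (0.07, adjusted p = 0.308).

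Peroxiredoxins, abundant enzymes that destroy hydrogen peroxide, most of them with electrons from thioredoxin, changed little. PRDX1, the most abundant, measured 237, 254, 272 and 277 FPKM (change 0.16, SE 0.055, adjusted p = 0.0390). PRDX2 measured 209, 217, 178 and 172 FPKM (−0.28, SE 0.052, adjusted p = 0.00291). The groups were apart for both, in opposite directions, so that PRDX1 went from 27.2% and 27.7% to 31.3% and 31.9% of the summed peroxiredoxin FPKM and PRDX2 from 23.9% and 23.7% to 20.5% and 19.9%. Both shifts ran with their regions, whose medians were 0.24 on chromosome 1 and −0.17 on chromosome 19. With bin medians subtracted neither passed, at −0.08 for PRDX1 (adjusted p = 0.296) and −0.11 for PRDX2 (adjusted p = 0.123). PRDX1 also did not pass without WT replicate 1 (0.11, adjusted p = 0.0934), KO replicate 1 (0.18, adjusted p = 0.167) or else KO replicate 2 (0.15, adjusted p = 0.249). PRDX3, PRDX4, PRDX5 and PRDX6, at 49.7 to 146 FPKM, did not pass, with changes from −0.09 to −0.004.

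Glutaredoxins, which reduce disulfides between proteins and glutathione, were lower for 2 of 3, beside 28.4% of all tested genes. GLRX3, which also carries iron-sulfur clusters, measured 21.5, 23.3, 17.4 and 17.6 FPKM (change −0.34, SE 0.059, adjusted p = 0.00225). GLRX2, the mitochondrial form, measured 14.6, 16.9, 12.4 and 12.2 FPKM (−0.33, SE 0.072, adjusted p = 0.00635), a call that was lost with no filter on low values (adjusted p = 0.0563). GLRX measured 14.4, 15.9, 12.7 and 14.3 FPKM and did not pass (−0.15, adjusted p = 0.123), except without WT replicate 1 (−0.22, adjusted p = 0.00309).

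Both superoxide dismutases of the list, SOD1 and SOD2, fell. SOD3, in the list of other detoxification enzymes, measured 9.50, 10.7, 15.7 and 14.8 FPKM and rose (0.55, adjusted p = 0.000459). SOD1, the copper-zinc enzyme of the cytosol, measured 163, 166, 141 and 142 FPKM (change −0.22, SE 0.050, adjusted p = 0.00765), a call that failed without KO replicate 1 (−0.21, adjusted p = 0.0857) or else KO replicate 2 (−0.22, adjusted p = 0.0800). With length and GC trends removed the change of SOD1 was −0.11 (adjusted p = 0.0851). SOD2, the manganese enzyme of mitochondria, measured 6.10, 6.09, 4.67 and 4.76 FPKM and was 1.29-fold lower (−0.31, SE 0.057, adjusted p = 0.00264). Its level per length is set by a gene model of 17592 bp, against 895 bp for SOD1, so the gap between the 2 levels depends on that model. Catalase, CAT, stayed at 25.9 to 27.9 FPKM with overlapping groups (adjusted p = 0.469).

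**Figure D3:**
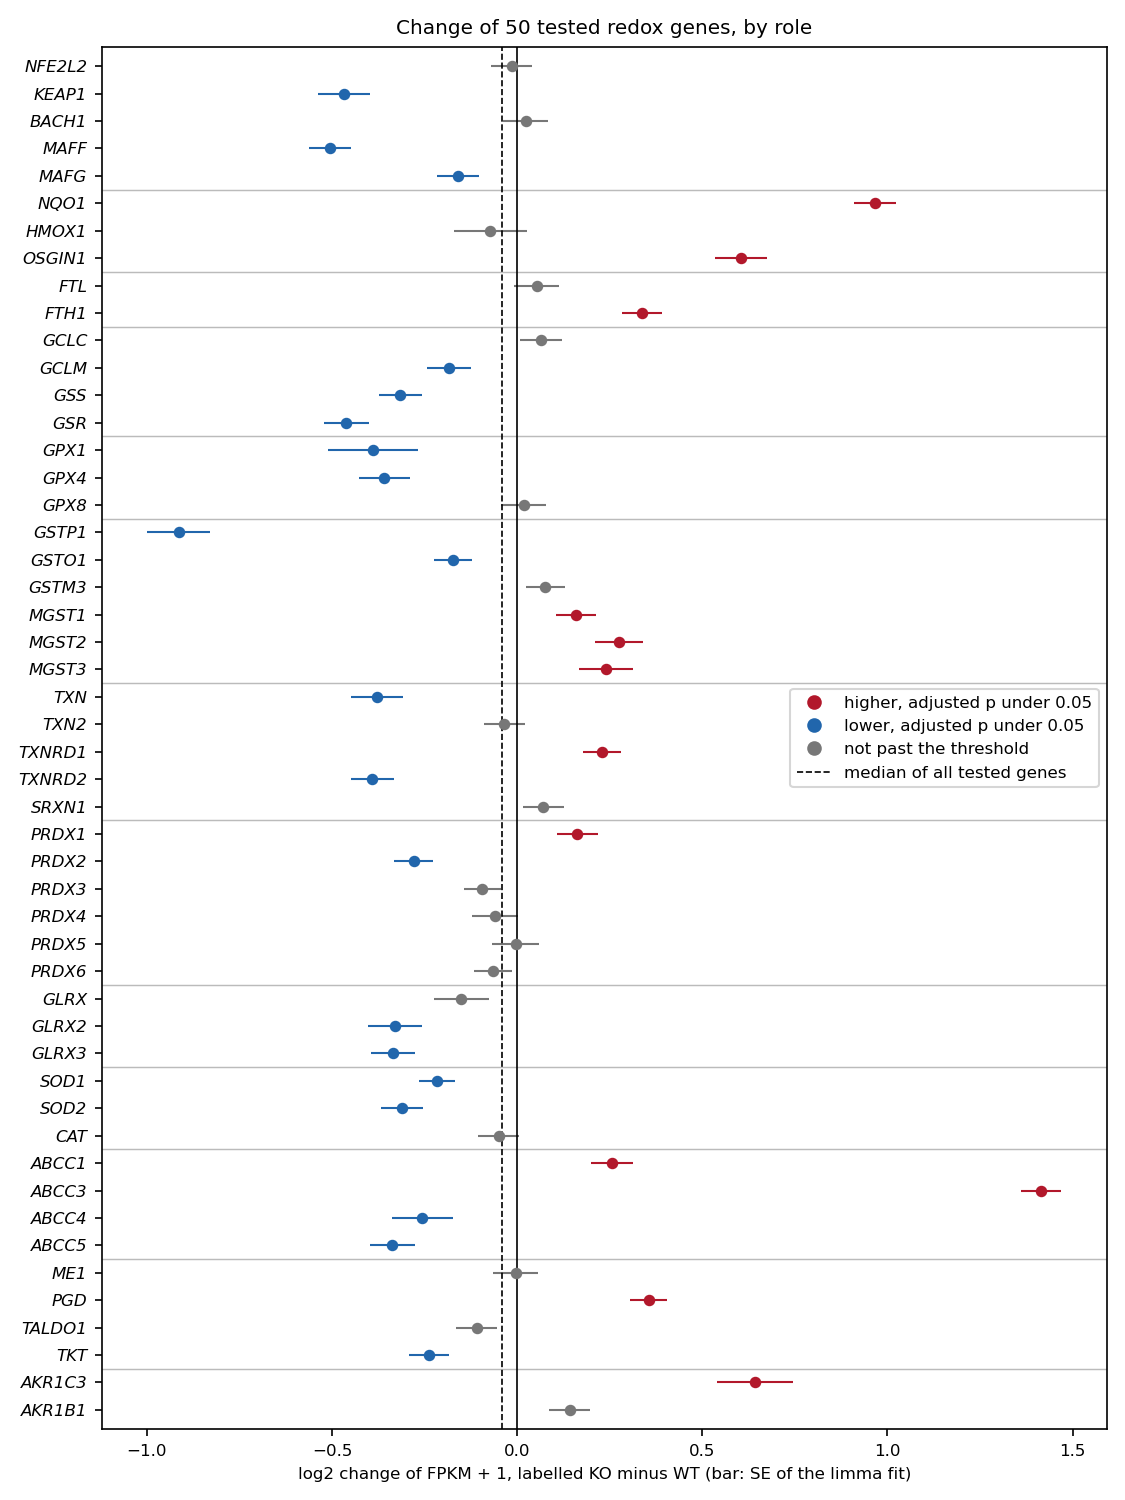
Change of each of the 50 tested members on the log2(FPKM + 1) scale, libraries labelled KO minus WT, with bars of 1 SE from the limma fit, grouped by role; red points rose, blue points fell and gray points did not pass the threshold. The dashed line is the median of all tested genes (−0.04). ABCC3 (1.42) and NQO1 (0.97) lie farthest to the right and GSTP1 (−0.91) farthest to the left.

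Among the efflux transporters, which export glutathione conjugates and drugs, ABCC3 had the largest change of the 50 tested members. ABCC3, or MRP3 (Entrez ID 8714, chromosome 17, 50634881 to 50692253), measured 6.74, 6.66, 19.4 and 19.7 FPKM. It was 2.92-fold higher in the libraries labelled KO (change 1.42, SE 0.054, adjusted p = 2.35e-06), and the replicates of each group differed by far less than the groups. The bin median there was −0.05. ABCC1, or MRP1, the most abundant of the family, measured 18.9, 17.8, 21.8 and 22.5 FPKM (0.26, SE 0.057, adjusted p = 0.00651), and did not pass without KO replicate 2 (0.24, adjusted p = 0.0727). ABCC5 measured 5.28, 4.88, 3.79 and 3.83 FPKM and was 1.33-fold lower (−0.34, SE 0.062, adjusted p = 0.00279). ABCC4 fell by 0.26 on the log2 scale (7.48, 6.18, 5.45 and 5.63 FPKM; adjusted p = 0.0353), a call that failed without WT replicate 1 (−0.14, adjusted p = 0.0798), KO replicate 1 (−0.24, adjusted p = 0.144) or else KO replicate 2 (−0.28, adjusted p = 0.0979).

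The ratio of ABCC3 to ABCC1 went from 0.356 and 0.374 in WT to 0.889 and 0.876 in the libraries labelled KO. ABCC2 had a mean under 1 FPKM and was not tested. It had 414 fragments in the WT libraries and 440 in the deeper libraries labelled KO, which per assigned fragment is 1.40 times as much in WT (exact 95% limits 1.22 and 1.61, for counting error only).

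Of the NADPH enzymes in the list, PGD rose, TKT fell and the others did not pass. PGD, an NADPH-producing dehydrogenase of the pentose phosphate pathway, measured 54.2, 54.6, 69.3 and 70.4 FPKM and was 1.28-fold higher in the libraries labelled KO (change 0.36, SE 0.050, adjusted p = 0.000781). The bin median at its place on chromosome 1 was 0.21, and it still passed with that subtracted (0.15, adjusted p = 0.0487). TKT, a transketolase of the reversible branch, measured 124, 129, 110.3 and 104 FPKM (−0.24, SE 0.055, adjusted p = 0.00798). That fall was close to the median of its bin on chromosome 3 (−0.21), with −0.03 left after subtraction (adjusted p = 0.725), and it did not pass without KO replicate 2 (−0.20, adjusted p = 0.115). TALDO1, the transaldolase, measured 109, 115, 106 and 101 FPKM (−0.11, adjusted p = 0.135) and passed, lower, with WT replicate 1 left out (−0.15, adjusted p = 0.0253). The cytosolic malic enzyme ME1 measured 7.19, 7.5, 7.09 and 7.57 FPKM, with overlapping groups. The ratio of PGD to TKT was 0.437 and 0.422 in WT against 0.628 and 0.676 with the KO label.

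Aldo-keto reductases, which reduce carbonyls with NADPH, include several strong NRF2 targets. AKR1C3 measured 3.06, 3.99, 6.30 and 5.76 FPKM and was 1.71-fold higher in the libraries labelled KO (change 0.64, SE 0.10, adjusted p = 0.00235), against a bin median of −0.32 on chromosome 10. AKR1B1, the most abundant, measured 37.9, 40.8, 43.5 and 43.5 FPKM, without overlap, and did not pass (0.14, adjusted p = 0.0674). It passed as a rise in 5 alternatives, among them the fit without WT replicate 2 (0.19, adjusted p = 0.00495). AKR1C1, AKR1C2 and AKR1B10 were below the filter. AKR1C1 had 147 fragments in WT against 408 with the KO label, 1.86 times as many per assigned fragment (exact 95% limits 1.54 and 2.26, for counting error only). AKR1C2 had 4 and 97, a ratio of 16.3 (6.15 to 60.9), and AKR1B10 had 31 and 73, a ratio of 1.58 (1.02 to 2.49). Each of these 3 genes was higher in both libraries labelled KO than in both WT libraries. AKR1C2 shares 38.1% of its 50-base words with AKR1C1 in GENCODE 29 transcripts, so the reads of these 2 genes cannot be told apart with certainty; for AKR1C3 the share with AKR1C2 was 3.61%.

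**Figure D4:**
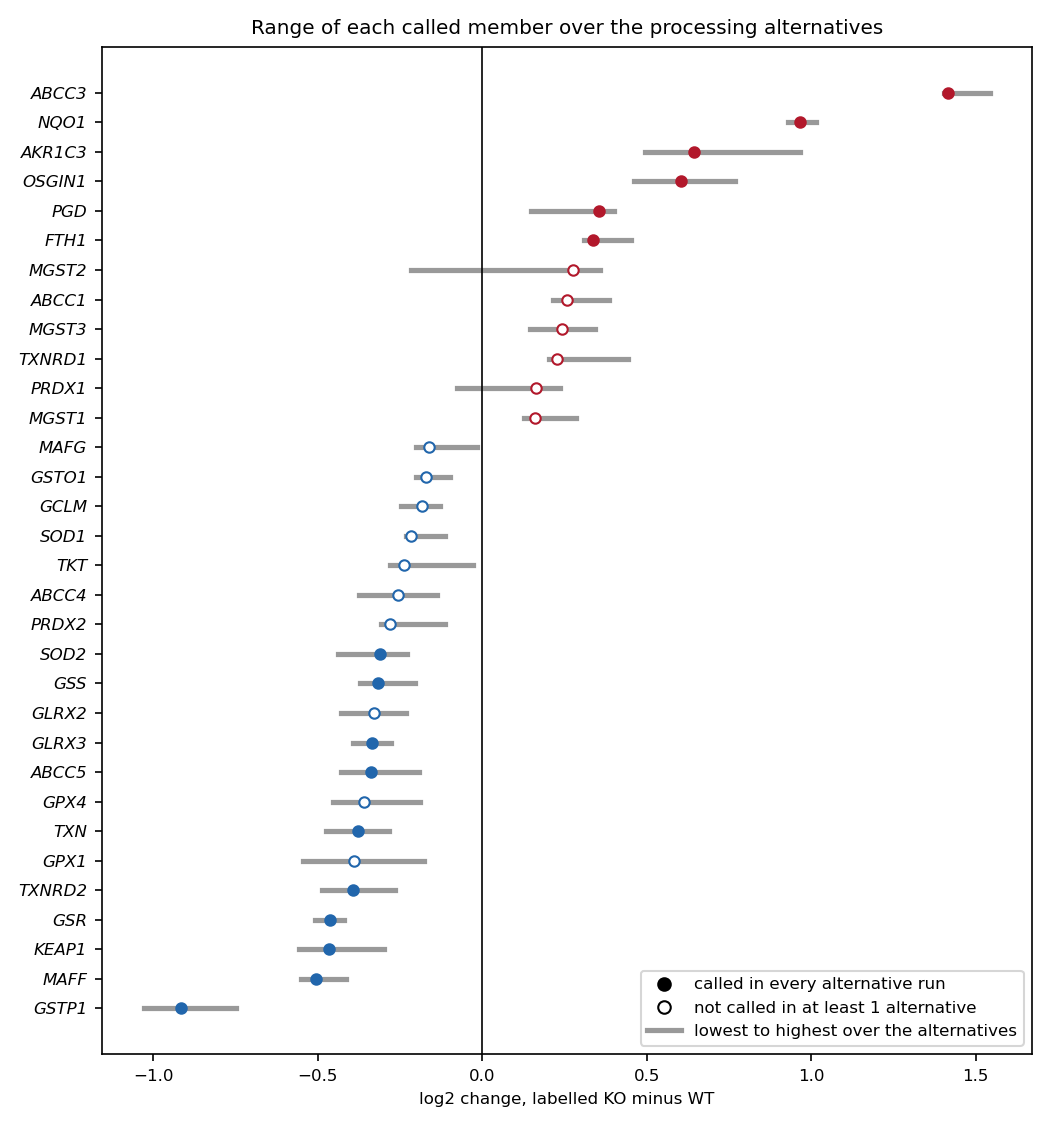
Change of the 32 called members (points; red rose, blue fell) with the range over 14 processing alternatives (gray bars), some of which use another scale, on the log2 axis. Filled points mark the 16 members called in every alternative in which they were tested. The bars of MGST2 and PRDX1 cross 0.

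Other genes of the same pathways were taken from 8 lists of 99 genes, of which 86 were tested; 30 rose and 22 fell (60.5%, beside 49.9% of all tested genes), with a median change of −0.03. Of the detoxification enzymes outside the list, 9 of 14 tested rose and 0 fell, beside 21.6% and 28.4% of all tested genes, with a median of 0.34. Of the 9, AKR1A1 (0.10, adjusted p = 0.196) and AKR7A2 (0.15, adjusted p = 0.0699) did not pass with bin medians subtracted, nor ALDH3A2 without KO replicate 2 (0.21, adjusted p = 0.0991). UGDH, which makes the sugar donor for glucuronidation, had the largest rise (12.9, 11.2, 18.7 and 18.6 FPKM; change 0.60, adjusted p = 0.000384), with a bin median of 0.29 there on chromosome 4. Among genes of this list chosen after their values were seen, the epoxide hydrolase EPHX1 rose by 0.59 (adjusted p = 0.000132) and the biliverdin reductases BLVRA and BLVRB, which act after HMOX1, rose by 0.51 and 0.41 (adjusted p = 0.000499 and 0.000632).

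Other NADPH sources and related enzymes went both ways, with 6 of 15 higher and 4 lower, beside the same 21.6% and 28.4% of all tested genes. H6PD, the hexose-6-phosphate dehydrogenase of the endoplasmic reticulum, measured 3.41, 2.72, 6.08 and 6.22 FPKM (change 0.82, adjusted p = 0.000247; bin median 0.21). PGLS, the lactonase that acts before PGD, rose by 0.26 (adjusted p = 0.0397), a call that failed without WT replicate 1 (0.13, adjusted p = 0.0552), KO replicate 1 (0.24, adjusted p = 0.149) or else KO replicate 2 (0.29, adjusted p = 0.0880). RPE and RPIA of the reversible branch did not pass (adjusted p = 0.0785 and 0.254), except for RPE, lower, with WT replicate 1 left out (−0.20, adjusted p = 0.00743). ME2, a mitochondrial malic enzyme and one of the related enzymes here, had the largest fall of this list (−0.38, adjusted p = 0.00183). ME3, the other malic enzyme of the list, measured 10.5, 10.8, 10.3 and 10.4 FPKM and did not pass (−0.04, adjusted p = 0.551). Of the folate pathway genes in this list, MTHFD1, MTHFD2 and MTHFD1L fell by 0.18, 0.26 and 0.19 on the log2 scale. None of these 3 calls was kept without KO replicate 1 (adjusted p = 0.166, 0.0522 and 0.135).

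Genes of cystine import and glutathione turnover counted 3 higher and 5 lower of 12 (all tested genes 21.6% and 28.4%). GGCT, one of those that rose, did not pass without KO replicate 1 (adjusted p = 0.0742), without KO replicate 2 (adjusted p = 0.180) or with bin medians subtracted (0.03, adjusted p = 0.767). SLC7A11, the cystine carrier of system xc- and a known NRF2 target, measured 7.68, 6.05, 12.4 and 13.1 FPKM and was 1.86-fold higher (change 0.82, SE 0.10, adjusted p = 0.000876). Its bin on chromosome 4 had a median of 0.48, and it still passed with that subtracted (0.34, adjusted p = 0.0365). SLC3A2, its heavy chain, stayed at 67.9 to 72.9 FPKM with a change of −0.05 (adjusted p = 0.435). CHAC1, which degrades glutathione in the cytosol, had the largest fall (1.46, 1.59, 1.01 and 0.921 FPKM; −0.36, adjusted p = 0.00302).

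In the list of other thioredoxin-related genes and sulfoxide reductases, 1 of 12 rose and 7 fell, against 21.6% and 28.4% of all tested genes. Of the 7, TXNL1 did not pass without KO replicate 1 (−0.24, adjusted p = 0.107), KO replicate 2 (−0.26, adjusted p = 0.0889) or with bin medians subtracted (−0.20, adjusted p = 0.0528). TXNIP, the inhibitor that binds reduced thioredoxin, was the one that rose, from 51.3 and 50.4 to 75.2 and 78.1 FPKM (change 0.58, adjusted p = 0.000103). TXNDC17, a thioredoxin-like protein, fell most (33.2, 33.2, 22.2 and 21.5 FPKM; −0.58, adjusted p = 0.000105). All 4 methionine sulfoxide reductases, MSRA, MSRB1, MSRB2 and MSRB3, fell, by 0.35, 0.27, 0.48 and 0.42 on the log2 scale, though MSRB1 did not pass without KO replicate 1 (adjusted p = 0.0521), with bin medians subtracted (−0.15, adjusted p = 0.0661) or with length and GC trends removed (−0.15, adjusted p = 0.0511).

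Iron genes counted 4 higher and 0 lower of 8, beside 21.6% and 28.4% of all tested genes. In both directions together the called share was close to the 49.9% of all tested genes. The ferrireductase STEAP3 had the largest rise, from 12.4 and 11.0 to 18.4 and 18.4 FPKM (change 0.62, adjusted p = 0.000236). Of the 4, AIFM2 (0.10, adjusted p = 0.188) and IREB2 (0.08, adjusted p = 0.427) did not pass with bin medians subtracted, nor IREB2 without KO replicate 2 (0.29, adjusted p = 0.0584). Further glutathione enzymes counted 4 higher and 2 lower of 11, a called share of 54.5% beside 49.9% of all tested genes. GSTCD had the largest rise (0.46, adjusted p = 0.000471) and GSTM1 the largest fall (−0.25, adjusted p = 0.0135). GSTCD did not pass with its bin median on chromosome 4 (0.53) subtracted (−0.07, adjusted p = 0.377), and GSTM1 did not pass without KO replicate 1 (−0.22, adjusted p = 0.105). Other regulators and partners of NRF2 counted 2 higher and 2 lower of 8, a called share of 50% beside 49.9% of all tested genes. TRIM16L rose most (0.54, adjusted p = 0.000446) and the NRF2 relative NFE2L3 fell most (−0.38, adjusted p = 0.00143). Selenoprotein synthesis had 1 of 6 higher, EEFSEC (0.18, adjusted p = 0.0425), and 2 lower, with SEPHS1 the larger fall (−0.43, adjusted p = 0.000544). The called share was again 50%, beside 49.9% of all tested genes. EEFSEC was not called without WT replicate 1 (adjusted p = 0.0812), KO replicate 1 (adjusted p = 0.134) or else KO replicate 2 (adjusted p = 0.281), and SEPHS1 not with its bin median on chromosome 10 (−0.32) subtracted (adjusted p = 0.146).

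**Figure D5:**
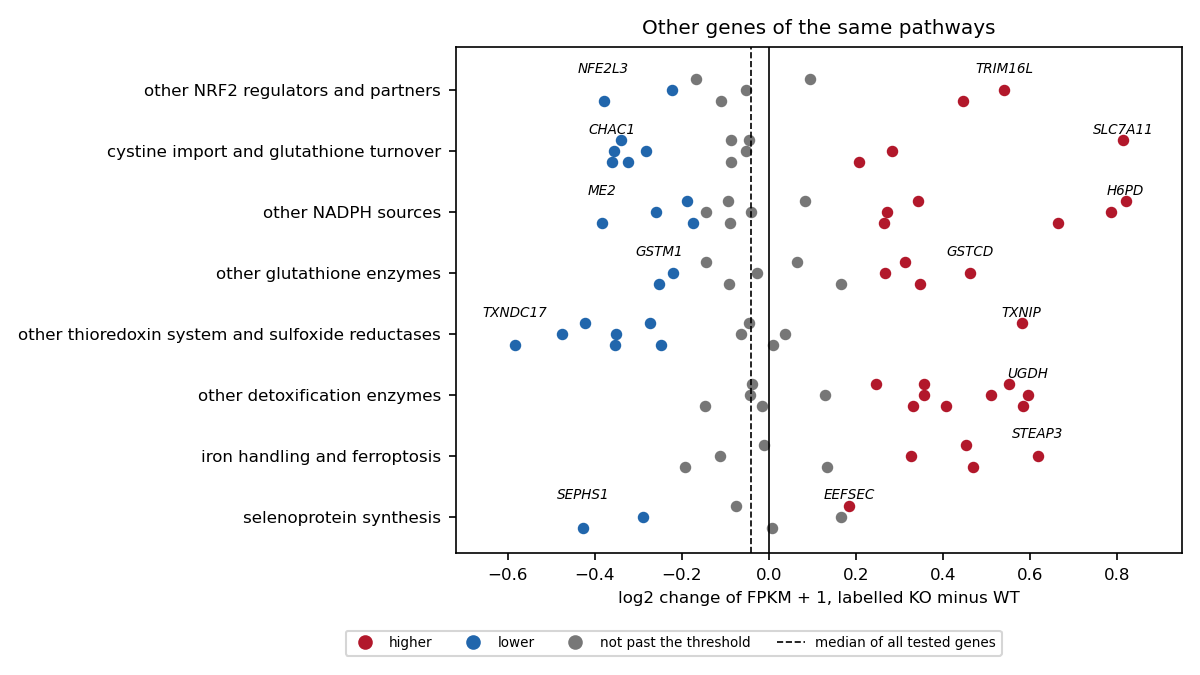
Change of the 86 tested genes of 8 other lists of the same pathways on the log2(FPKM + 1) scale, libraries labelled KO minus WT; each point is a gene, red rose, blue fell and gray did not pass, and small vertical shifts only separate points. The dashed line is the median of all tested genes, and the largest called rise and fall of each list are named, from H6PD (0.82) to TXNDC17 (−0.58).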

How the data were processed

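Total RNA of 4 MDA-MB-231 libraries (WT and labelled KO, 2 each, grouped by title) was sequenced commercially, per the labels' protocols. STAR, Subread and DESeq2 appear in the submitters' processing notes; their versions, the genome build and whether counting used strand were not given in the sources used here. FPKM values were deposited by the authors for 39259 genes, per the file headers. FPKM times length divided by its smallest value above 0 was whole for 100% of values above 0 (tolerance 0.001), which gave the fragments and depths. No table column belonged to other samples. Symbols came from RefSeq on GRCh38.p14 by Entrez ID (37708 genes matched, 96.0%).

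The test was limma 3.58.1 in R 4.3.3 (robust, with a trend) on log2(FPKM + 1) of genes whose mean reached 1 FPKM, Benjamini-Hochberg adjustment over all 11716 and a threshold of 0.05. Low genes change by less on this scale than in FPKM. The fit was also run on simulated data, and no result given here rests on that run. No pair of replicates agreed within sampling noise: chi-square divided by its degrees of freedom was 10.5 for WT and 7.37 for KO, and 70.3 to 98.1 across groups. The members and lists were chosen with earlier results of these data known.

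Alternatives were a pseudocount of 0.1, no filter, a mean of at least 5 FPKM, limma without trend or robust, median-of-ratios scaling, voom on the fragments, a replicate block, medians of 20 Mb bins subtracted (other tested genes, at least 10) and each library left out; a crossed block and removal of trends with length and GC content (splines with 5 degrees of freedom, GC known for 97.0% of tested genes) were added after the data were seen. Genes given library by library were NFE2L2, KEAP1 and BACH1 and, in each role group, the 3 called members with the largest change and the most abundant one; further members are described beside them, and from each other list the largest called rise and fall were named; other genes of those lists were named after their values were seen. Protein sequences were not used here.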

Additional observations from a re-analysis of the deposited data

How the results depend on the processing

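Over the whole table, leaving out 1 library moved the genes called higher between 1559 and 3076 and those called lower between 1962 and 4001 (2527 and 3323 with all libraries). Members called higher ranged from 6 to 13 and members called lower from 13 to 21 in the same fits. With bin medians subtracted 13 members were called lower, and 10 higher. Other alternatives kept both member counts within 1.5 times. Median-of-ratios scaling raised the share of higher calls among called members from 37.5% to 46.4%, lost ABCC4, GCLM, GPX1, GSTO1 and MAFG and turned no called member. Bin medians turned MGST2 (−0.22), PRDX1 (−0.077) and, outside the list, GSTCD (−0.070). The sign of genes near 0 was not fixed. NFE2L2 was 0.030 with median-of-ratios scaling and 0.047 with bin medians subtracted, and between −0.054 and 0.025 with 1 library left out. BACH1 was −0.050 with length and GC trends removed and between −0.020 and 0.066 with 1 library left out, and FTL was between −0.0075 and 0.11 in the latter fits. The causes were not tested. Where a group was left with 1 library, its variation was taken from the other group. Of 614 values of 48 named genes under alternatives, 540 kept direction and side of the threshold. Same-numbered libraries did not deviate together (correlation across genes −0.22), and the labels name no shared culture. With the replicate block 10 members were called higher and 16 lower, and 2348 and 3029 genes over the whole table. The crossed block gave 13 and 20 members, and 2839 and 3821 genes. WT replicate 2, the shallowest library, limits the precision of the genes with few fragments (AKR1C2, AKR1B10).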

Other observations

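Another 3 pathway genes under the filter were chosen after their values were seen. Their FPKM was higher in both libraries labelled KO than in either WT library. ALDH3A1, an aldehyde dehydrogenase, measured 0.423, 0.470, 1.20 and 1.03 FPKM. SESN3, a sestrin, measured 0.164, 0.0980, 0.643 and 0.673 FPKM, from 22 to 350 fragments per library. GPX7, a peroxidase of the endoplasmic reticulum, had 10, 1, 44 and 37 fragments. Of the 13 genes of those lists that were not tested, PIR was also higher, narrowly (0.322, 0.510, 0.643 and 0.513 FPKM). In the other direction, the sestrin SESN1 measured 0.991, 1.01, 0.794 and 0.858 FPKM. BACH2 was lower too (0.196, 0.196, 0.153 and 0.170 FPKM). Over all tested genes 77.5% did not overlap, and no such share was computed for genes under the filter.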
